A study of Homo sapiens with 8 samples.

Results

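Immune checkpoint and costimulatory ligands, the cell surface or secreted proteins by which a cell tunes immune cells, were followed in LP-1 cells through 10 genes: CD274, CD47, CD80, CD86, CD276, ICOSLG, PVR, LGALS9, TNFSF9 and CD48. They were picked by name, with earlier results of these data known. Each matched 1 gene symbol in the annotation deposited with the table, so that 10 of its 63129 rows were used. LP-1 is an established human multiple myeloma cell line, a tumour of plasma cells that carries the t(4;14) translocation. RNA-seq was performed after 6 hr of treatment in 8 libraries, which form 4 groups of 2 biological replicates. SGC-CBP30, an inhibitor of the bromodomains of the histone acetyltransferases CBP and EP300, was used at 2.5 μM, and CPI203, an inhibitor of the bromodomains of the BET family proteins, at 250 nM. Each compound has a separate pair of DMSO libraries, matched to it by the naming series in the library labels. The labels do not state this match, or separate experiments, in words. Each naming series is called an experiment below. All 4 groups are the same unmodified line, without a genetic change made for the study. The study describes no T cells, NK cells or macrophages added to these cultures, so the answer of such cells to the ligands was not followed. Of the ligands only mRNA was measured.

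T cells need a signal from their antigen receptor and a costimulatory signal, which CD80 and CD86 give through CD28 and ICOSLG gives through ICOS, whereas CTLA4 and the checkpoint receptor PDCD1 restrain the response when they bind CD80 and CD86 or CD274 (PD-L1). Other ligands act on innate cells: CD47 binds SIRPA and restrains phagocytosis by macrophages, PVR is shared by the inhibitory receptor TIGIT and the activating receptor CD226, and CD48 binds CD244 on NK cells and CD2 on T cells. In myeloma these proteins sit on the plasma cells that T cells, NK cells and antibodies are meant to attack. CD48 and the related SLAMF7 are known as abundant surface proteins of plasma cells.

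Levels are RPKM, reads scaled to the length of the gene and to the mapped reads of the library, a measure per length that can be compared between genes. Differences are log2 fold changes on the log2(RPKM + 0.1) scale from limma, with p-values adjusted by Benjamini-Hochberg over all 14732 genes that averaged 1 RPKM or more. A gene was called when its adjusted p was under 0.05 and its change at least 1.5-fold. A permutation of 2 against 2 libraries cannot give a two-sided p below 0.333, so the p-values rest on the spread that limma shares across genes. Estimated depth was 50100000 and 46800000 reads with SGC-CBP30, and 34200000 and 34000000 reads in the matching DMSO libraries. In the libraries of the CPI203 experiment it was between 25900000 and 29600000 reads. The SD of the log2 difference between replicates was between 0.081 and 0.104 over 7150 well expressed genes. All 12 plasma cell markers examined were above 1 RPKM in every library, as were FGFR3 and NSD2, the genes of the t(4;14) translocation. The plasma cell markers summed to 2896 to 2952 RPKM with DMSO and 2345 to 2379 with SGC-CBP30, and to 3348 to 3472 with DMSO and 2376 to 2417 with CPI203. Of 8 B cell markers 6 stayed under 1 RPKM, with PAX5 at 0, while CIITA and CD79B were expressed. The B cell sum was 75.8 to 76.3 RPKM with DMSO and 30.1 to 31.7 with SGC-CBP30, and 39.4 to 42.3 with DMSO and 16.7 to 17.3 with CPI203, and most of it was CIITA and CD79B. Both sums were thus lower in the treated libraries, but JCHAIN alone had 1270 to 1920 RPKM of the plasma cell sum, and not every marker fell. PRDM1 was at 54.2 and 51.7 RPKM with DMSO and 70.0 and 66.3 RPKM with CPI203. SDC1 was at 43.9 and 47.2 RPKM with DMSO and 53.1 and 47.4 RPKM with SGC-CBP30. The 8 T and NK cell markers, the 8 fibroblast and epithelial markers and 6 of 7 monocyte markers stayed under 1 RPKM throughout, and the remaining one, CD68, was between 0.313 and 2.38 RPKM. The summed T and NK cell markers were 0.075 to 0.271 RPKM in the 4 libraries of the SGC-CBP30 series and 0.891 to 1.39 RPKM in those of the CPI203 experiment, with and without compound. The part of these markers in the results below was not tested.

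The promoter windows of the 3 genes that the results turn on are shown first, with that of CD274, the best known checkpoint ligand, for contrast. Each holds the 250 bases before the annotated start, read 5′ to 3′ on the strand of the gene, from RefSeq on GRCh38.p14. Capitals mark matches to any of 6 short motifs that were searched on both strands. These were AANNGAAA for the core of an interferon response element, CACGTG for the E-box, TGANTCA for an AP-1 type site, CCAAT for the box of that name, TATAAA for the TATA box, and GGNNTTTCC for an NF-kappaB type site.
CD48, chr1:160711823-160712072, minus strand: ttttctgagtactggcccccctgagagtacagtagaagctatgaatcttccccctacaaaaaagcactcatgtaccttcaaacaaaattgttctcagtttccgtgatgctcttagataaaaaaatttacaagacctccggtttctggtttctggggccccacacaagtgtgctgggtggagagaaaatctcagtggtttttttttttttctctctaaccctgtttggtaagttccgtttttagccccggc
ICOSLG, chr21:44240944-44241193, minus strand: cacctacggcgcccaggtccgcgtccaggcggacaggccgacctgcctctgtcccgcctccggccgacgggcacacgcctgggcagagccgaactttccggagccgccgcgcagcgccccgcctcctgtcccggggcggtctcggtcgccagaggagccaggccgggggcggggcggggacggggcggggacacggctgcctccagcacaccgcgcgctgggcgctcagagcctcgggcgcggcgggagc
PVR, chr19:44643660-44643909, plus strand: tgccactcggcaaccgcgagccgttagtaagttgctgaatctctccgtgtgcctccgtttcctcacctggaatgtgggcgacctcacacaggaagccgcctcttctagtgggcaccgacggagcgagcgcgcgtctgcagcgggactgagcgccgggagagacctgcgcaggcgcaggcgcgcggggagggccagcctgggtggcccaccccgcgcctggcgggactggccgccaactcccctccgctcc
CD274, chr9:5450292-5450541, plus strand: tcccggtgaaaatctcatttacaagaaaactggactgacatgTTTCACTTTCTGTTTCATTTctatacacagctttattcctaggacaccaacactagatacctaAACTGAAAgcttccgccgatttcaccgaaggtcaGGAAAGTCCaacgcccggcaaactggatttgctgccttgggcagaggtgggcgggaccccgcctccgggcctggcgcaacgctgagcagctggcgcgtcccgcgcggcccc

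The windows of CD48, ICOSLG and PVR are in lower case throughout, as none of the 6 motifs was found in them. In the CD274 window 3 overlapping interferon-type cores start at positions -208, -202 and -196 from the start site, another lies at -145, and 1 NF-kappaB type match begins at -111. Of 35116 windows of this length, 20.3% hold AANNGAAA, 6.34% CACGTG, 6.57% TGANTCA, 32.0% CCAAT, 10.7% TATAAA and 5.48% GGNNTTTCC. The 3 genes also differ in base composition. The CD48 window has 43.2% GC and 4 CpG, the PVR window 70% and 27, and the ICOSLG window 79.2% and 36, beside a median of 58% GC over all windows. Over all 10 genes, 12 windows were found. The TNFSF9 window holds a TATA box at -30 and an interferon-type core at -192, and the LGALS9 window an interferon-type core at -9. The first of 2 CD276 windows holds a CCAAT box at -107 and an NF-kappaB type match at -223. In the second of 2 CD86 windows lie 2 NF-kappaB type matches, while the windows of CD47 and CD80 held no match. A match describes letters only, and factor binding was not measured here.

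Of the 10 genes, 5 were expressed well enough to be tested, and they span a wide range. Averaged over the 8 libraries, CD47 was the most abundant at 45.7 RPKM, followed by CD48 at 33.3, CD276 at 28.1, PVR at 8.92 and ICOSLG at 2.20 RPKM. In the untreated cells of both experiments CD48 and CD47 led this order, and in the CPI203 experiment their order differed between the DMSO libraries, which had 46.1 and 43.8 RPKM of CD48 and 44.6 and 44.3 RPKM of CD47. The other 5, CD86, CD274, TNFSF9, CD80 and LGALS9, averaged 0.607, 0.323, 0.292, 0.252 and 0.0274 RPKM, and they are given as levels. LP-1 cells thus had RNA for CD47, CD48, CD276, PVR and ICOSLG at a level that could be measured, and little for the classical CD28 and PDCD1 ligands.

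**Figure D1:**
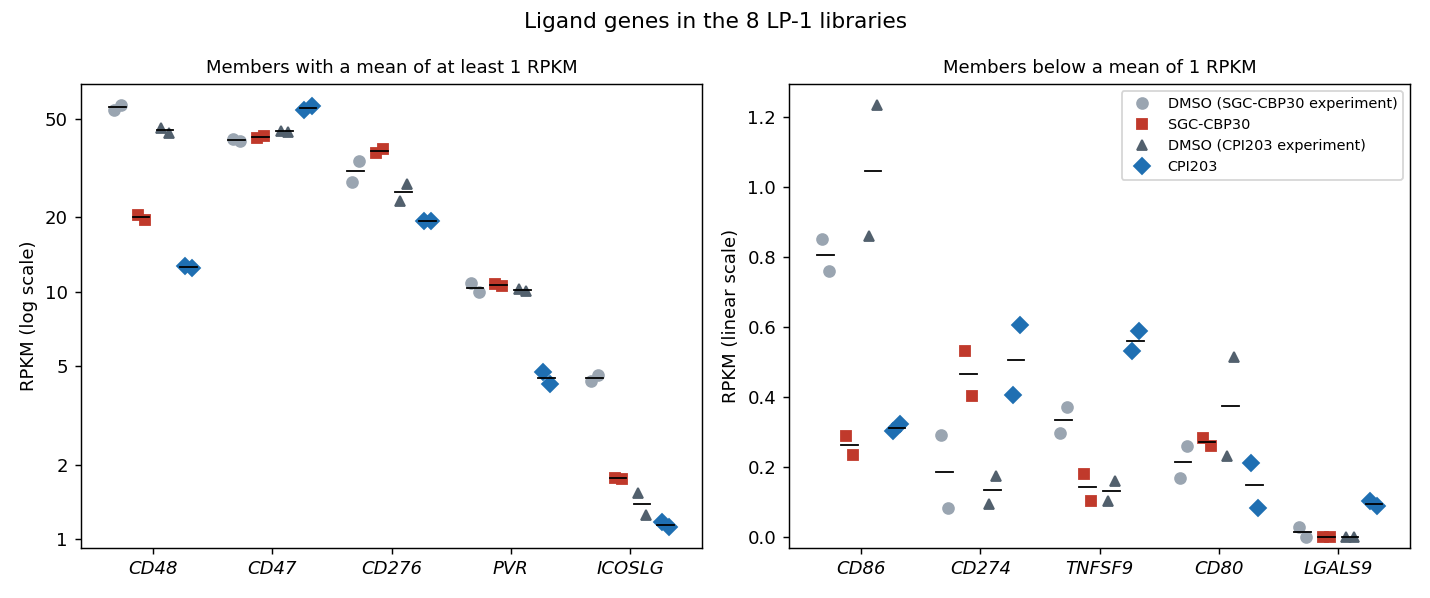
Levels of the 10 ligand genes in the 8 LP-1 libraries, in RPKM on a log axis for the 5 that were tested (left) and on a linear axis for the 5 below a mean of 1 RPKM (right). Each point is 1 library, short lines mark the means of 2 libraries, and colours and shapes mark the groups. CD48 lies lower with both compounds and PVR lower with CPI203. ICOSLG lies at a mean of 4.49 RPKM in the DMSO pair matched to SGC-CBP30 and under 2 RPKM elsewhere.

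Both compounds lowered CD48, and CPI203 lowered PVR. ICOSLG was called lower with SGC-CBP30 against the matching DMSO pair. This call was lost with all 4 DMSO libraries as controls (limma adjusted p = 0.542). With each compound 2 of the 5 tested genes were called, all of them lower. Over all genes tested, 7.26% were called with SGC-CBP30, 3.79% lower and 3.47% higher, and 27.8% were called with CPI203, 14.4% lower and 13.4% higher. Over the 5 genes the median log2 fold change was 0.03 (SGC-CBP30) and -0.38 (CPI203), beside 0.07 and -0.01 over all genes tested. By adjusted p alone 3 of 5 passed with SGC-CBP30 and 4 of 5 with CPI203, where 40.4% and 64.2% of all genes did. Treated and DMSO libraries did not overlap for 4 of 5 genes with SGC-CBP30 and for 5 of 5 with CPI203, a pattern that 73.1% and 80.8% of all genes showed.

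CD48 encodes a lipid-anchored member of the SLAM family that engages CD244 on NK cells. Its level in the SGC-CBP30 experiment was 54.4 and 57.0 RPKM with DMSO and 20.4 and 19.5 RPKM with the compound. In the CPI203 experiment it was 46.1 and 43.8 RPKM with DMSO and 12.6 and 12.5 RPKM with the compound. All 4 treated libraries lay below all 4 DMSO libraries by a wide margin, and replicates were close. In bulk RNA fewer cells with the transcript and less transcript per cell cannot be told apart. The level with compound was 35.8% of DMSO for SGC-CBP30, a log2 fold change of -1.48 ± 0.050 (SE, n = 2 against 2, limma adjusted p = 1.75e-07), and 28.0% for CPI203, -1.83 ± 0.050 (SE, n = 2 against 2, limma adjusted p = 5.66e-09). Only 64 of the 14732 genes fell further with SGC-CBP30 and 190 with CPI203. The fall was larger with CPI203, and the log2 difference between the compounds, SGC-CBP30 minus CPI203, was 0.35 ± 0.071 (SE, limma adjusted p = 0.00251). The gene lies on chromosome 1 from 160648536 to 160681641 (hg19). RP11-404F10.2, which overlaps it, had 0.082 to 0.697 RPKM, and whether the authors counted by strand is not given in the sources used here.

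ICOSLG encodes a B7 family protein that costimulates T cells through ICOS. In the SGC-CBP30 experiment its level was 4.36 and 4.63 RPKM with DMSO and 1.77 and 1.75 RPKM with the compound, so the groups were far apart. In the CPI203 experiment it was 1.53 and 1.25 RPKM with DMSO and 1.17 and 1.12 RPKM with the compound. Here the groups did not overlap either, but their means differed by less than the DMSO libraries did from each other. The log2 fold change was -1.30 ± 0.149 with SGC-CBP30 (SE, n = 2 against 2, limma adjusted p = 1.89e-04), to 39.2% of DMSO, and -0.25 ± 0.149 with CPI203 (SE, n = 2 against 2, limma adjusted p = 0.164, 95% interval -0.59 to 0.08). The difference between the compounds was -1.05 ± 0.211 on the log2 scale (SE, limma adjusted p = 0.00249). The untreated level itself differed 3.23-fold between the DMSO pairs, with means of 4.49 and 1.39 RPKM, so CPI203 was tested from a lower starting level. The SGC-CBP30 libraries lay above the DMSO libraries of the CPI203 experiment. With all 4 DMSO libraries as controls the log2 fold change with SGC-CBP30 was -0.49 and the call was lost (limma adjusted p = 0.542). The DMSO pairs did not overlap for 4 of the 5 tested ligand genes, nor for 71.3% of all genes tested. What differed between the DMSO pairs cannot be told apart from the experiment they came from.

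PVR encodes a nectin-like adhesion protein that TIGIT, CD226 and CD96 compete for. With SGC-CBP30 it was at 10.7 and 10.5 RPKM, between the DMSO values of 10.8 and 9.94 RPKM. With CPI203 it was at 4.76 and 4.24 RPKM, and at 10.3 and 10.1 RPKM in the matching DMSO libraries. The untreated libraries of both experiments and those with SGC-CBP30 thus shared 1 level, and the CPI203 libraries lay at less than 5 RPKM. The log2 fold change was -1.16 ± 0.081 with CPI203 (SE, n = 2 against 2, limma adjusted p = 1.21e-06), to 44.1% of DMSO, and 649 genes fell further. With SGC-CBP30 it was 0.03 ± 0.081 (SE, n = 2 against 2, limma adjusted p = 0.777), with a 95% interval from -0.15 to 0.21. The difference between the compounds was 1.20 ± 0.114 on the log2 scale (SE, limma adjusted p = 2.44e-05). CEACAM19, which overlaps PVR on chromosome 19 (45147098 to 45166850, hg19), had 0.544 to 0.893 RPKM.

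**Figure D2:**
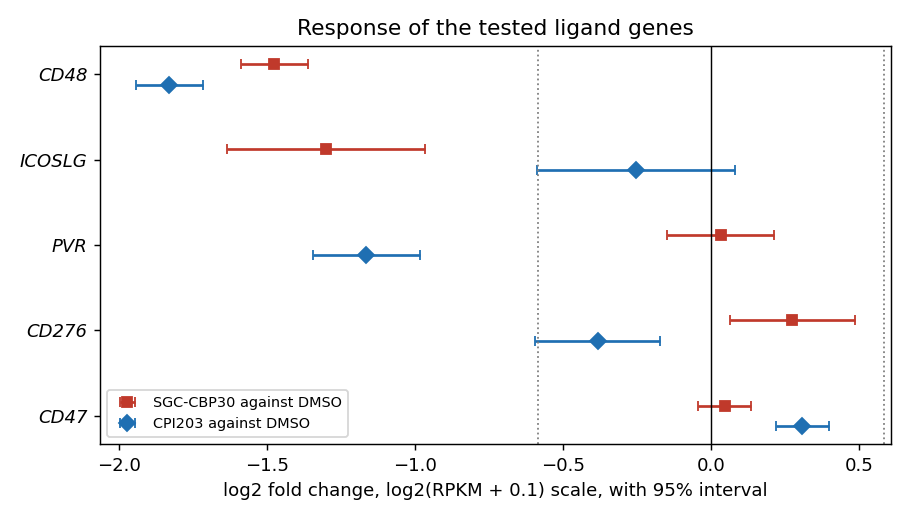
Log2 fold changes of the 5 tested ligand genes with SGC-CBP30 (red squares) and CPI203 (blue diamonds) against their own DMSO libraries, on the log2(RPKM + 0.1) scale, with 95% intervals from limma. Dotted lines mark 1.5-fold. CD48 lies left of the dotted line with both compounds, ICOSLG with SGC-CBP30 at -1.30 and PVR with CPI203 at -1.16.

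CD276 and CD47, the remaining tested genes, changed by less than 1.5-fold. CD276 encodes a B7 family protein whose receptor is not settled. It was at 27.7 and 33.8 RPKM with DMSO and 36.5 and 37.6 RPKM with SGC-CBP30, and at 23.3 and 27.2 RPKM with DMSO and 19.3 and 19.2 RPKM with CPI203. The treated libraries were higher than DMSO in the first experiment and lower in the second, and the DMSO replicates spread more than the treated ones. The log2 fold change was 0.28 ± 0.094 with SGC-CBP30 (SE, n = 2 against 2, limma adjusted p = 0.0412) and -0.38 ± 0.094 with CPI203 (SE, n = 2 against 2, limma adjusted p = 0.005), and without the filter on low values the adjusted p was 0.212 and 0.0602. The first of these passed by a small margin: without the first DMSO replicate the log2 fold change was 0.13 with an adjusted p of 0.284, without either SGC-CBP30 replicate the adjusted p was 0.099 or 0.160, and after median scaling of the libraries it was 0.124. The difference between the compounds was 0.66 ± 0.132 (SE, limma adjusted p = 0.00249).

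CD47 encodes the ligand by which cells restrain their own uptake by macrophages. Its level was 41.3 and 40.7 RPKM with DMSO and 42.0 and 42.7 RPKM with SGC-CBP30, a log2 fold change of 0.05 ± 0.040 (SE, n = 2 against 2, limma adjusted p = 0.378) whose 95% interval ran from -0.04 to 0.14. In the CPI203 experiment it was 44.6 and 44.3 RPKM with DMSO and 54.1 and 56.0 RPKM with the compound. CPI203 thus raised CD47 1.24-fold, with a log2 fold change of 0.31 ± 0.040 (SE, n = 2 against 2, limma adjusted p = 8.12e-05) that stayed under 1.5-fold. The difference between the compounds was -0.26 ± 0.056 (SE, limma adjusted p = 0.00349). The response to the compounds therefore differed for 5 of the 5 tested genes at an adjusted p under 0.05, where 50.3% of all genes tested did. The compounds were given at 1 dose each, the doses differ, and each compound was compared with the DMSO pair of its own naming series. A difference between the compounds thus cannot be told apart from one between the doses or the experiments. The DMSO pairs did not overlap for 4 of the 5 genes. For ICOSLG their means were 4.49 and 1.39 RPKM, with 1.76 RPKM under SGC-CBP30.

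The 5 genes of low level rest on few reads, an estimated 96.8 at most in any library (CD274). CD86 is a ligand of CD28 and CTLA4, and it had 0.850 and 0.760 RPKM with DMSO and 0.290 and 0.234 RPKM with SGC-CBP30. In the CPI203 experiment CD86 had 0.860 and 1.23 RPKM with DMSO and 0.304 and 0.322 RPKM with the compound. All 4 treated libraries lay below all 4 DMSO libraries, and the estimated number of reads behind each value was between 21.3 and 88.1. In a fit without the filter on low values, over 33312 genes, the log2 difference of CD86 was -1.32 with SGC-CBP30 (limma adjusted p = 0.0196) and -1.45 with CPI203 (limma adjusted p = 0.00586). CD80, which binds the same receptors, was between 0.082 and 0.514 RPKM, and it had adjusted p-values of 0.796 and 0.181 in that fit. It overlaps TIMMDC1, which had 64.0 to 73.2 RPKM, so a small share of reads assigned to the wrong gene would matter for CD80.

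TNFSF9, a TNF family ligand that costimulates T cells through TNFRSF9, differed between the compounds. It had 0.298 and 0.372 RPKM with DMSO and 0.181 and 0.103 RPKM with SGC-CBP30, and 0.104 and 0.159 RPKM with DMSO and 0.533 and 0.588 RPKM with CPI203. The CPI203 libraries were the highest of the 8, and the DMSO pairs did not overlap. Without the filter the log2 difference was -0.86 with SGC-CBP30 (limma adjusted p = 0.084) and 1.52 with CPI203 (limma adjusted p = 0.00713), and the difference between the compounds was -2.38 (limma adjusted p = 0.00803). The values rest on an estimated 5.02 to 29.0 reads per library.

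CD274, the ligand of PDCD1, had 0.291 and 0.082 RPKM with DMSO and 0.530 and 0.404 RPKM with SGC-CBP30, and 0.095 and 0.174 RPKM with DMSO and 0.405 and 0.606 RPKM with CPI203. All 4 treated libraries were above all 4 DMSO libraries, but the replicates spread widely. Without the filter the log2 difference was 1.08 with SGC-CBP30 (limma adjusted p = 0.204) and 1.37 with CPI203 (limma adjusted p = 0.0748), which did not pass the threshold, and the standard error was 0.438 in both comparisons. LGALS9, which encodes a galectin that binds HAVCR2, was listed at 0.028 RPKM and 0 with DMSO and at 0 in both libraries with SGC-CBP30, and in the CPI203 experiment at 0 in both DMSO libraries and at 0.102 and 0.089 RPKM with CPI203, an estimated 8.22 reads at most. No fold is given for it, since both controls of CPI203 and both SGC-CBP30 libraries were listed at 0, and its near copies LGALS9B and LGALS9C may share reads.

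Genes that work with these ligands were examined in 6 lists with 112 entries, of which 52 genes were tested. The lists were chosen with earlier results of these data known. They hold IRF4, which the study reports as lowered by SGC-CBP30. With SGC-CBP30, 10 of the 52 were called and all of these were lower, while with CPI203 12 were called lower and 11 higher. Of all genes tested, SGC-CBP30 lowered 3.79% and raised 3.47% past the same thresholds, and CPI203 lowered 14.4% and raised 13.4%. The median change of the 52 on the log2 scale was -0.13 for SGC-CBP30 and 0.0012 for CPI203, beside 0.07 and -0.01 over all genes. These calls lean on the DMSO pair in 1 experiment. With all 4 DMSO libraries as controls, 8 of the 10 calls with SGC-CBP30 were lost, and 1 of the 23 with CPI203. Over all genes tested, the calls went from 1070 to 516 with SGC-CBP30 and from 4095 to 4266 with CPI203. That setting counts the difference between the DMSO pairs as spread, so a lost call can come from a larger spread or a smaller change.

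In the list of other B7 and butyrophilin family members 6 of 15 genes were tested. With SGC-CBP30 1 was called and with CPI203 4, all of them lower, with medians of -0.32 and -1.03. VSIR, which encodes the checkpoint protein VISTA, fell from 9.13 and 10.7 RPKM with DMSO to 4.75 and 4.06 RPKM with SGC-CBP30, a log2 fold change of -1.15 (limma adjusted p = 7.43e-05), and its value with CPI203 was -0.26 (limma adjusted p = 0.0656). VSIR was among the calls lost with all 4 DMSO libraries as controls. The 3 BTN3A genes, whose proteins present phosphoantigen signals to gamma delta T cells, fell with CPI203. Their log2 fold changes with CPI203 were -1.46 for BTN3A1, -1.61 for BTN3A2 and -1.84 for BTN3A3 (limma adjusted p at most 3.39e-07), and with SGC-CBP30 -0.18, -0.37 and -0.33. They are close copies of each other, so how reads were split among them is uncertain.

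Of other adhesion-type and inhibitory ligands 16 of 25 were tested, of which 3 were called with SGC-CBP30, all lower, and 5 higher and 4 lower with CPI203, with medians of -0.11 and 0.16. ICAM1, the adhesion ligand of the integrin LFA-1, went from 40.6 and 44.0 to 28.1 and 26.4 RPKM with SGC-CBP30, and from 33.4 and 30.9 to 8.84 and 10.0 RPKM with CPI203. Its log2 fold changes were -0.63 and -1.76 (limma adjusted p = 2.05e-04 and 5.96e-08). LGALS3, which encodes another galectin, was at 2.63 and 2.99 RPKM with DMSO and rose to 9.98 and 10.9 RPKM with CPI203, a log2 fold change of 1.86 (limma adjusted p = 1.75e-06), and its value with SGC-CBP30 was -0.30 (limma adjusted p = 0.110). NECTIN1, a relative of PVR chosen after its values were seen, was called in opposite directions, at -1.54 with SGC-CBP30 and 1.04 with CPI203 (limma adjusted p = 8.19e-06 and 1.46e-05). The calls of ICAM1 and NECTIN1 with SGC-CBP30 and that of NECTIN1 with CPI203 were lost with all 4 DMSO libraries as controls.

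Few of the TNF family and NKG2D ligands reached 1 RPKM. Of other TNF family costimulation genes 2 of 12 were tested, 1 was called with each compound, lower both times, and the medians were -0.57 and -0.59. The called gene was TNFRSF14, whose protein is a ligand of the receptor BTLA. It was at -0.86 with SGC-CBP30 and -0.70 with CPI203 (limma adjusted p = 0.00318 and 0.00447). The first call was lost with all 4 DMSO libraries as controls and the second with a pseudocount of 1. Of 8 NKG2D ligands, stress proteins that alert NK cells, 1 was tested, MICB, and it was not called with either compound, at -0.36 and -0.06.

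Among the receptors of the ligands 3 of 27 were tested, and PDCD1, CTLA4, ICOS, TIGIT, CD244 and CD226 were all under 1 RPKM in every library. Of the 3, 1 was called lower with SGC-CBP30, and 1 higher and 1 lower with CPI203, with medians of 0.10 and 0.14. CD28, the receptor of CD80 and CD86, which myeloma cells can express themselves, was at 10.2 and 9.69 RPKM with DMSO and 5.37 and 4.74 RPKM with SGC-CBP30. In the CPI203 experiment CD28 went from 17.7 and 16.8 RPKM to 1.71 and 1.88 RPKM. Its log2 fold changes were -0.97 and -3.19 (limma adjusted p = 6.83e-05 and 8.63e-09). CD28 and its ligand CD86 were thus both lower in the treated libraries, with CD86 at low level. CD72, the receptor of semaphorin signals on B cells, rose with CPI203 (1.09, limma adjusted p = 0.00306) and was at 0.46 with SGC-CBP30 (limma adjusted p = 0.160).

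**Figure D3:**
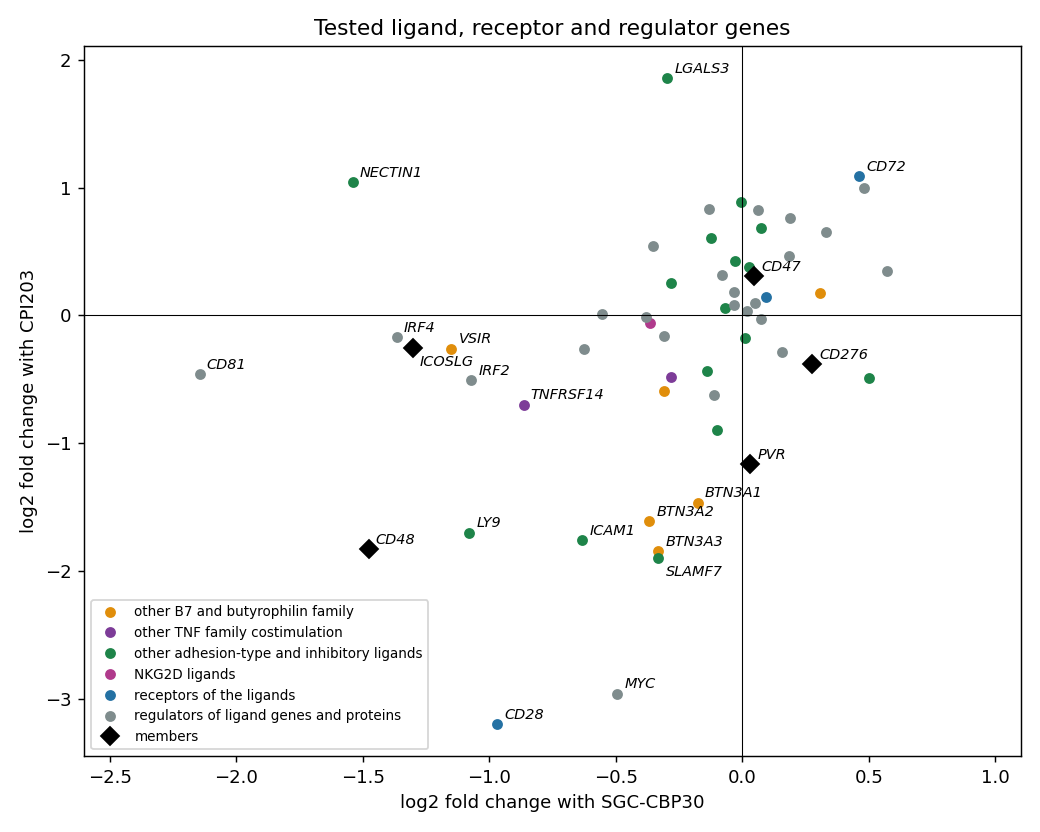
Log2 fold change with SGC-CBP30 (horizontal) against that with CPI203 (vertical) for the tested genes of the 6 lists (dots, coloured by list) and the 5 tested ligand genes (black diamonds). CD48 lies at the lower left, ICOSLG near IRF4 at the left with little change by CPI203, and PVR on the vertical axis below 0, near the BTN3A genes.

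In the list of regulators of ligand genes and proteins 24 of 25 genes were tested. With SGC-CBP30 4 were called, all lower, and with CPI203 5 higher and 2 lower, with medians of -0.06 and 0.06. The 5 called higher with CPI203 were IFNGR1 (1.00), JAK1 (0.83), JAK2 (0.82), STAT3 (0.77) and CMTM6 (0.65, all log2 fold changes). None of these was called with SGC-CBP30. IRF4, the master transcription factor of plasma cells, was at 215 and 211 RPKM with DMSO and 86.2 and 79.5 RPKM with SGC-CBP30, and at 228.2 and 228 RPKM with DMSO and 203 and 202 RPKM with CPI203. MYC was at 281 and 296 RPKM with DMSO and 217 and 193 RPKM with SGC-CBP30, and at 247 and 239.6 RPKM with DMSO and 31.5 and 30.9 RPKM with CPI203. IRF4 thus fell mainly with SGC-CBP30 (-1.36 against -0.17 on the log2 scale) and MYC mainly with CPI203 (-0.49 against -2.96), and the differences between the compounds were -1.19 and 2.47 (limma adjusted p = 4.48e-07 and 1.04e-07). ICOSLG had the larger change with SGC-CBP30 and PVR the larger one with CPI203, and whether either is tied to IRF4 or MYC was not tested. IRF2 fell with both compounds (-1.07 and -0.51, limma adjusted p = 1.48e-06 and 2.43e-05), the second of these under 1.5-fold. CD81, a tetraspanin, was at -2.14 with SGC-CBP30 (limma adjusted p = 9.15e-05) and -0.46 with CPI203 (limma adjusted p = 0.0883). It had the same pattern of untreated levels as ICOSLG, with means of 6.02 and 1.25 RPKM in the DMSO pairs. The calls of IRF2 and CD81 with SGC-CBP30 were lost with all 4 DMSO libraries as controls.

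The genes around the called ligands were compared next, by a window of 250 kb on either side that was chosen after values were seen. Near CD48 lie SLAMF7 and LY9, members of the same SLAM family, whose genes are clustered on chromosome 1. SLAMF7 was at 41.6 and 41.7 RPKM with DMSO and 11.2 and 10.9 RPKM with CPI203, a log2 fold change of -1.90 (limma adjusted p = 4.41e-09), and its value with SGC-CBP30 was -0.33 (limma adjusted p = 9.29e-04). LY9 was called with both, at -1.08 with SGC-CBP30 and -1.70 with CPI203 (limma adjusted p = 8.38e-04 and 9.83e-06), though its call with SGC-CBP30 was lost with all 4 DMSO libraries as controls. The 3 expressed SLAM family genes of this cluster were therefore lower with CPI203 by similar amounts, while with SGC-CBP30 CD48 and SLAMF7 differed more. Of the 4 tested neighbours of CD48, 1 was called lower with SGC-CBP30 and 3 with CPI203.

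Near PVR 3 genes were tested, of which 1 was called lower with SGC-CBP30 and 2 with CPI203. BCL3, a partner of NF-kappaB proteins, was at -0.99 and -1.07 (limma adjusted p = 5.02e-04 and 7.02e-05), and TOMM40, a mitochondrial import channel, was at -0.14 and -1.01 (limma adjusted p = 0.114 and 7.75e-07). Around ICOSLG 7 genes were tested, and with SGC-CBP30 none passed both the adjusted p and 1.5-fold in limma, though AGPAT3 (-0.41) and C21orf33 (-0.20) had adjusted p-values of 3.74e-04 and 0.0017. With CPI203 2 of the 7 were called lower and 1 higher. These windows hold few genes, and over all genes tested 7.26% were called with SGC-CBP30 and 27.8% with CPI203.

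**Figure D4:**
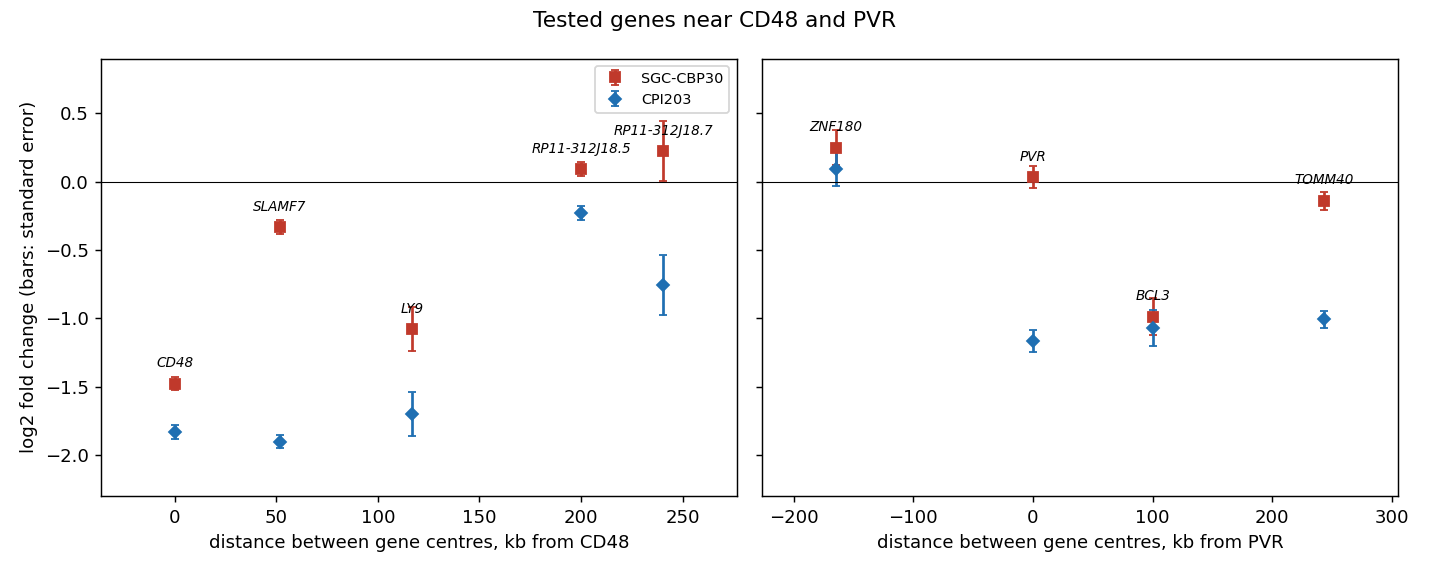
Log2 fold changes (points, bars show the standard error) of the tested genes within 250 kb of CD48 (left) and PVR (right), against the distance between gene centres in kb. With CPI203 SLAMF7 and LY9 lie near CD48 at -1.90 and -1.70, and BCL3 and TOMM40 lie near PVR at -1.07 and -1.01, while ZNF180 lies at 0.25 and 0.09.

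The genes whose levels followed CD48 most closely over the 8 libraries, by Pearson correlation of log2 values, were KB-1471A8.1 (0.998), DAZAP1 (0.996), POU2AF1 (0.994), SOWAHD (0.993) and TNS3 (0.993). The 8 points share 2 experiments and 4 groups, so such values mostly describe the same order of group means. POU2AF1, a coactivator of B lineage genes, averaged 84.0 RPKM with DMSO and 39.2 RPKM with SGC-CBP30, and 75.9 RPKM with DMSO and 31.6 RPKM with CPI203. DAZAP1 followed CD48 in order but not in size, with log2 fold changes of -0.32 and -0.36.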

How the data were processed

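RNA-seq of LP-1 cells was sequenced and mapped by a service provider for the authors, who deposited 1 RPKM value per gene and library. Per the submitters' processing notes, TopHat 1.4.1, Cufflinks and hg19 were used. The annotation release and the use of strand are not given in the sources used here. The deposited table also holds 24 columns of no sample of this series, which were not used. RPKM normalizes for length and mapped reads but not for composition, and it holds no counts, so no count test was run. Depth was estimated from the steps of low values of 4388 single-exon genes. These values were within 0.1 read of a whole number in 57.3% to 71.6% of cases per library. Reads per gene were estimated from this depth and the longest annotated transcript of the gene.

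Of 63129 rows, 27 with a missing value were left out, and 14732 genes that averaged 1 RPKM or more were tested as deposited. In R 4.3.3, limma 3.58.1 (eBayes with trend) was fitted to log2(RPKM + 0.1) over the 4 groups, with 4 residual and 5.48 prior degrees of freedom, and tested on simulated data. The contrasts were each compound against its own DMSO pair and the difference between the 2 contrasts. The p-values weigh each change against the spread between these libraries, which limma shares across genes. The genes named were the 10 ligands, up to 4 called genes per list with the largest change, the 5 genes most like CD48, and IRF4 and MYC. Regulators called higher with CPI203 were named as well. The 10 ligands and the lists were chosen with earlier results of these data known. Positions are those of the deposited annotation, with the start converted to count from 1. Results were recomputed with no filter or a filter at 5 RPKM, a pseudocount of 1, libraries scaled to equal medians, all 4 DMSO libraries as controls, a replicate block, a fit per experiment, other thresholds, and without each library. Tables, motifs and figures were made in Python 3.11.15 (numpy 2.4.6, pandas 2.3.3, matplotlib 3.10.9).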

Additional observations from a re-analysis of the deposited data

How the results depend on the processing

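The number of ligand genes called was 2 with SGC-CBP30, 2 with CPI203 and 5 for the difference between the compounds, and each of these held when any 1 library was left out (2 to 2, 2 to 2 and 5 to 5). With SGC-CBP30 it was 1 where an average of 5 RPKM was required, which leaves ICOSLG untested, and 1 with all 4 DMSO libraries as controls, where ICOSLG was at -0.49. Without the filter on low values the counts were 3, 5 and 7 of 10, where 1249, 5352 and 6819 of all 33312 genes were called. CD86, LGALS9 and TNFSF9 were among the 5 of CPI203, and LGALS9 rests on an estimated 8.22 reads at most. By adjusted p alone the counts were 3 with SGC-CBP30 and 4 with CPI203. The study calls its DMSO controls paired, but neither it nor the labels say that the replicate numbers pair single libraries, and the correlation of replicate differences was -0.172 in the SGC-CBP30 experiment and -0.0395 in the CPI203 experiment. With the replicate number as a block the counts were 2, 2 and 5, and with crossed numbers in the SGC-CBP30 experiment, an alternative chosen after seeing the data, they were also 2, 2 and 5. The sign of the small, uncalled values with SGC-CBP30 turned for CD47 under median scaling (-0.030) and with all 4 DMSO libraries (-0.011), and for PVR under median scaling (-0.044). With 1 library left out PVR ranged from -0.028, without the second DMSO replicate, to 0.093. Of 227 values of single genes under alternatives, 222 kept their direction and whether they were called. By adjusted p alone 10 crossed 0.05: CD276 with SGC-CBP30 in 8 of 16 alternatives (0.0103 to 0.284 over all 16), CD276 with CPI203 in 1 of 16 (0.0602 without the filter) and ICOSLG with SGC-CBP30 in 1 of 15. Over all 14732 genes tested, 1070 were called with SGC-CBP30, 667 with a pseudocount of 1 and 516 with all 4 DMSO libraries, and 4095 were called with CPI203. At 5 RPKM or more only 10544 genes were tested, of which 505 were called with SGC-CBP30 and 2590 with CPI203. Median scaling turned the 511 higher and 559 lower calls with SGC-CBP30 into 342 and 709. Genes under 1 RPKM are limited by depth.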
